A study of Mus musculus with 34 samples.

Results

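Pax1, Pax2, Pax3, Pax5, Pax7, Pax8 and Pax9 are the members of the Pax family whose main uses lie outside the pancreatic islet and the eye. They encode transcription factors that bind DNA through a paired domain, and each helps to set up particular tissues of the embryo before being switched off in most others. Such genes carry CpG islands, stretches rich in the dinucleotide CG that are mostly free of methylation in normal tissues, and methylation of an island at a gene's start usually goes along with silencing. The islands were found by grouping the array probes annotated to these 7 genes wherever neighbours lay at most 500 bases apart. The 147 Pax probes formed 20 islands, of which 19 had the 3 probes needed for a score, among 13614 scored islands on the array. Pax2 island 1, with 2 probes, was the island left unscored. Pax2, Pax3 and Pax9 had 3 scored islands each, Pax5 and Pax7 had 4 each, and Pax1 and Pax8 had 1 each.

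Methylated DNA was pulled down with an antibody to 5-methylcytidine (mDIP), and the Cy5-labelled bound fraction of each mouse sample was hybridised together with its Cy3-labelled input to a CpG island array. The log ratio of bound to input was turned into a Z-score over all probes of its array, and the island methylation score is the mean Z of an island's probes. The study took scores below 0 as unmethylated and scores above 0.75 as methylated. A score is a mean over all cells of a sample, so that a few fully methylated cells and many weakly methylated cells cannot be told apart.

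The 34 arrays held 16 of adult C57Bl/6 tissue, with 2 each of colon, pancreas, brain, kidney, liver, lung, muscle and spleen from mice 3 months old of both sexes. There were 5 whole embryos, aged 8.5, 9.5, 10.5, 11.5 and 12.5 days, and 3 undifferentiated embryonic stem (ES) cell lines, EB5, J1 and TT2. Differentiated ES cells comprised 5 arrays: embryoid bodies (cell aggregates grown without LIF, from TT2), ES cells treated with retinoic acid, 2 of endoderm and 1 of mesoderm, the last 3 sorted by reporters from an EB5 derivative after activin A. The remaining arrays were 2 teratomas grown from ES cells under the skin of immunodeficient NOD-SCID mice, 1 of β cells sorted from pancreas, and 1 each of the Min6 (β cell) and aTC (α cell) tumour lines. By the study's description the β cells came from Pdx1-GFP transgenic mice, at ages from below to above 3 months. They were sorted with antibodies to insulin. The labels name TT2 as parent of the retinoic acid cells and J1 as parent of the teratomas, whereas the methods name J1 and the lines D3 and C4. A figure legend of the study also gives TT2 for the retinoic acid cells. The parent lines of these 3 arrays are thus not settled. Separate animals were shown by a differing sex for brain, kidney, liver, muscle and spleen only. For the other repeated groups nothing says that the samples came from separate animals or cultures, and p-values then measure only the spread between these samples, which may be technical.

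Several arrays went against their labels. Over the 1318 most variable autosomal islands, with Pax islands left out, the colon arrays correlated with each other (Pearson r = 0.869) and so did the pancreas arrays (r = 0.579), but the other 12 of 16 adult arrays were nearest to an array of another label. Kidney 1 was nearest to spleen 2 (r = 0.698) and kidney 2 to spleen 1 (r = 0.426), while the arrays labelled kidney correlated with each other at -0.405. Brain and liver were crossed in the same way, with r = 0.484 and r = 0.499 between them. For these tissues and lung and muscle all arrays numbered 1 were scanned on day 4 on the grid of 97651 probes, and all numbered 2 on days 5, 6 or 7 on that of 88737 probes, so that number, scan day and grid cannot be told apart. These arrays are therefore named by their label alone, and no array was moved to another group. All 16 remain adult tissue by label, so the comparisons of adult tissue as a class do not depend on which tissue is which. The deposited processed column of the J1 array correlated with its scanner file at only 0.113, against 0.894 to 0.991 for the other arrays. Input signal over background ran from 3.07 to 7.34 across arrays, 51.1% to 100% of the Pax probes had input well above background, and no Pax spot was saturated. Of 18 genes set aside as markers of the labelled tissues and cells only 4 had a scored island, so the identity of the samples could hardly be checked this way.

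The letters that mDIP reads are the CG pairs. The promoters of Pax1 and Pax5 are printed here because these genes gave the clearest differences between classes below. That of Pax8 is printed for its high scores on the colon arrays, although all 4 probes of its scored island lie inside the gene. RefSeq promoters of GRCm38.p6, reaching from 250 bases before to 50 bases after the gene's start, were available for 6 of the 7 genes (8 entries, none for Pax3). Each is written 5′ to 3′ on the gene's strand, with every CG in capitals. The array files use positions of another build that the sources used here do not name, so that these stretches are not aligned with the islands.
Pax1, chr2:147364744-147365043, plus strand: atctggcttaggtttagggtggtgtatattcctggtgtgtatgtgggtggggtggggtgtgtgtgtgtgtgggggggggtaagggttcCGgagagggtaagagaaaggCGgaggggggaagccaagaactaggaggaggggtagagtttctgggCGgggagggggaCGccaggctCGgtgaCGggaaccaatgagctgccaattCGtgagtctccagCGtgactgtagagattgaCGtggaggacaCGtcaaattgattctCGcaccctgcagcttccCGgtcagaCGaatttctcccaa
Pax5, chr4:44710645-44710944, minus strand: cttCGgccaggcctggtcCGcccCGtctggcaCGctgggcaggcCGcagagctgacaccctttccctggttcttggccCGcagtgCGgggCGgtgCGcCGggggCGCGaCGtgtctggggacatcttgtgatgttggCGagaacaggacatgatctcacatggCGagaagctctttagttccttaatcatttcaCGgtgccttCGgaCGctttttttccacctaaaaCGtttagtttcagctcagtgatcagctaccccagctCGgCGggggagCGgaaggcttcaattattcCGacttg
Pax8, chr2:24475550-24475849, minus strand: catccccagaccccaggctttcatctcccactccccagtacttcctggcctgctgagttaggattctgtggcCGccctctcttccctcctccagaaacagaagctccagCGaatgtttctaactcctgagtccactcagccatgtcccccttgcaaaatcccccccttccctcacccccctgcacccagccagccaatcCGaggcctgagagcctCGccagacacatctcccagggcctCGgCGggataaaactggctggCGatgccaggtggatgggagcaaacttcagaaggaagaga
The Pax5 promoter held 23 CG and Pax1 13, whereas Pax8 held 7, the median of the 32851 promoters of this length. Of those promoters 94.6% held at least a single CG, 78.5% held fewer CG than Pax5, 62.1% fewer than Pax1 and 47.9% fewer than Pax8. The entries of Pax2 ranged from 7 to 30 CG, Pax7 had 17 and Pax9 had 11.

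Most Pax islands were unmethylated in animals and in ES cells, as were most of all islands on the array. The mean score was below 0 at 13 of 19 islands in adult tissue, at 17 in embryos, at 11 in undifferentiated and in differentiated ES cells, and at 13 in teratomas. Over all islands 71.0% were below 0 in adult tissue, 67.4% in embryos, 62.0% in undifferentiated ES cells, 62.5% in differentiated ES cells and 66.6% in teratomas. The median Pax score was -0.20 in adult tissue (all islands -0.21), -0.27 in embryos (-0.18), -0.07 in undifferentiated ES cells (-0.13), -0.09 in differentiated ES cells (-0.16) and -0.13 in teratomas (-0.17). Only Pax5 island 3 in undifferentiated ES cells, and Pax5 island 3 and Pax8 island 1 in differentiated ES cells, had a class mean above 0.75.

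**Figure D1:**
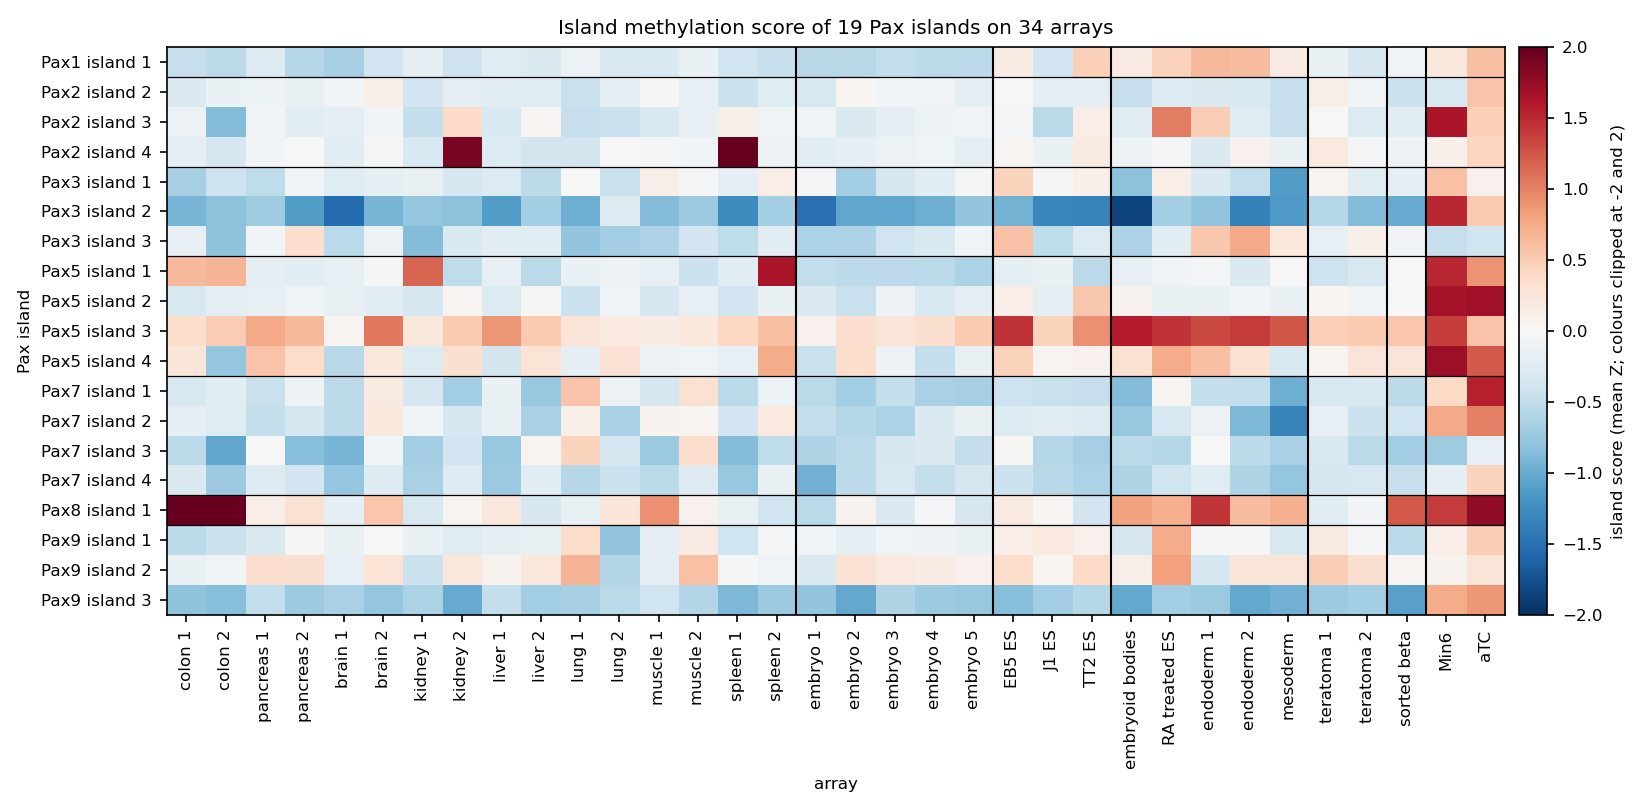
Island methylation score (mean Z, colour, clipped at -2 and 2) of the 19 Pax islands (rows) on each of the 34 arrays (columns), with vertical lines between classes and horizontal lines between genes. Most cells are blue (below 0), Pax5 island 3 is red on all arrays, and the Min6 and aTC columns at the right are red at many islands.

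Pax7 island 4, whose 18 probes cover the start of this gene of muscle satellite cells (chr4:139103531-139105734, 13 probes inside the gene and 5 in its promoter), was below 0 on 33 of 34 arrays. Pax3 island 2 (chr1:78079798-78080496, 6 probes at the start of this gene of neural crest and muscle precursors) and Pax9 island 3 (chr12:57614420-57615408, 10 probes inside this gene of tooth, palate and vertebral column) were below 0 on 32 arrays each. Pax5 island 3 (chr4:44731741-44732350, 4 probes in the promoter of the gene that commits cells to the B lineage) was below 0 on none and above 0.75 on 11. Pax8 island 1 (chr2:24296057-24296526, 4 probes inside this gene of thyroid and kidney) was above 0.75 on 8 arrays and below 0 on 13. Among the 171 pairs of Pax islands the Pearson r over the 34 arrays, which share samples and slides, had a median of 0.261. It ran from -0.308 (Pax5 island 1 with Pax9 island 2) to 0.824 (Pax5 island 2 with Pax9 island 3).

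The series was built to compare differentiated ES cells with the tissues of the animal. Against adult tissue 4 of 19 Pax islands differed by limma with Benjamini-Hochberg adjustment at 0.05 over all islands: Pax1 island 1, Pax5 island 3 and Pax3 island 3 were higher in differentiated ES cells and Pax7 island 2 was lower. Of all 13614 islands 14.4% were called higher and 8.73% lower, so that 3 higher and 1 lower of 19 lie near the background. The median Pax difference was -0.03 and that of all islands -0.01. The arrays did not overlap at 2 of the 19 islands, Pax1 island 1 and Pax5 island 3, where every differentiated ES array lay above every adult array, as was so for 2.51% of all islands.

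Pax1 sets up the sclerotome, from which vertebrae form, and the pharyngeal pouches. The 12 probes of its island (chr2:147056275-147057935, 10 inside the gene and 2 in its promoter) gave adult scores from -0.66 to -0.11 with a median of -0.34. The embryos, in order of age, gave -0.55, -0.55, -0.49, -0.53 and -0.52. Every adult and embryo array was thus unmethylated by the study's threshold, with the embryos in the lower part of the adult range. In differentiated ES cells the scores were 0.16 in embryoid bodies, 0.46 after retinoic acid, 0.66 and 0.62 in endoderm and 0.16 in mesoderm. All 5 lay above 0 and above all adult and embryo arrays, yet none reached 0.75. The mean was 0.41 ± 0.24 (SD, n = 5) against -0.36 ± 0.16 (SD, n = 16) in adult tissue, a difference of 0.77 (SE 0.10, limma adjusted p = 1.75e-06). Of the 12 probes 10 were higher on average in differentiated ES cells. The difference was 0.71 with the slide as a block (limma adjusted p = 0.0120), 0.70 when scan day was the block (0.00625) and 0.62 with the scanner software version as a block (1.98e-04). Within the scan days that held both classes it was 0.89 (endoderm 2 against pancreas 1) and 0.58 (embryoid bodies against brain 2, kidney 2 and spleen 2).

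At Pax5 island 3 adult scores ran from 0.06 to 1.06 with a median of 0.46, and embryos gave 0.09, 0.34, 0.26, 0.33 and 0.53 in order of age. Differentiated ES cells gave 1.57 in embryoid bodies, 1.44 after retinoic acid, 1.32 and 1.39 in endoderm and 1.23 in mesoderm. All 5 were methylated by the threshold and above the highest adult array, brain 2. The mean of 1.39 ± 0.13 (SD, n = 5) exceeded that of adult tissue, 0.46 ± 0.28 (SD, n = 16), by 0.93 (SE 0.14, limma adjusted p = 7.13e-06), and all 4 probes were higher. With the slide as a block the difference was 0.58 and no longer passed (limma adjusted p = 0.0952), with the scan day it was 0.77 (0.0237), and within scan days it was 0.64 and 0.85. The 3 neighbouring Pax5 islands did not pass. Pax5 island 4 (chr4:44733930-44734483, 4 promoter probes) went from -0.78 to 0.74 in adult tissue with a median of 0.06, and gave 0.31, 0.75, 0.61, 0.30 and -0.32 in differentiated ES cells (limma adjusted p = 0.267). Pax5 island 2 (chr4:44724191-44725891, 13 probes inside the gene) was at -0.20 ± 0.14 (SD) on the 16 adult arrays and -0.08 ± 0.09 (SD) on the 5 of differentiated ES cells (limma adjusted p = 0.337).

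**Figure D2:**
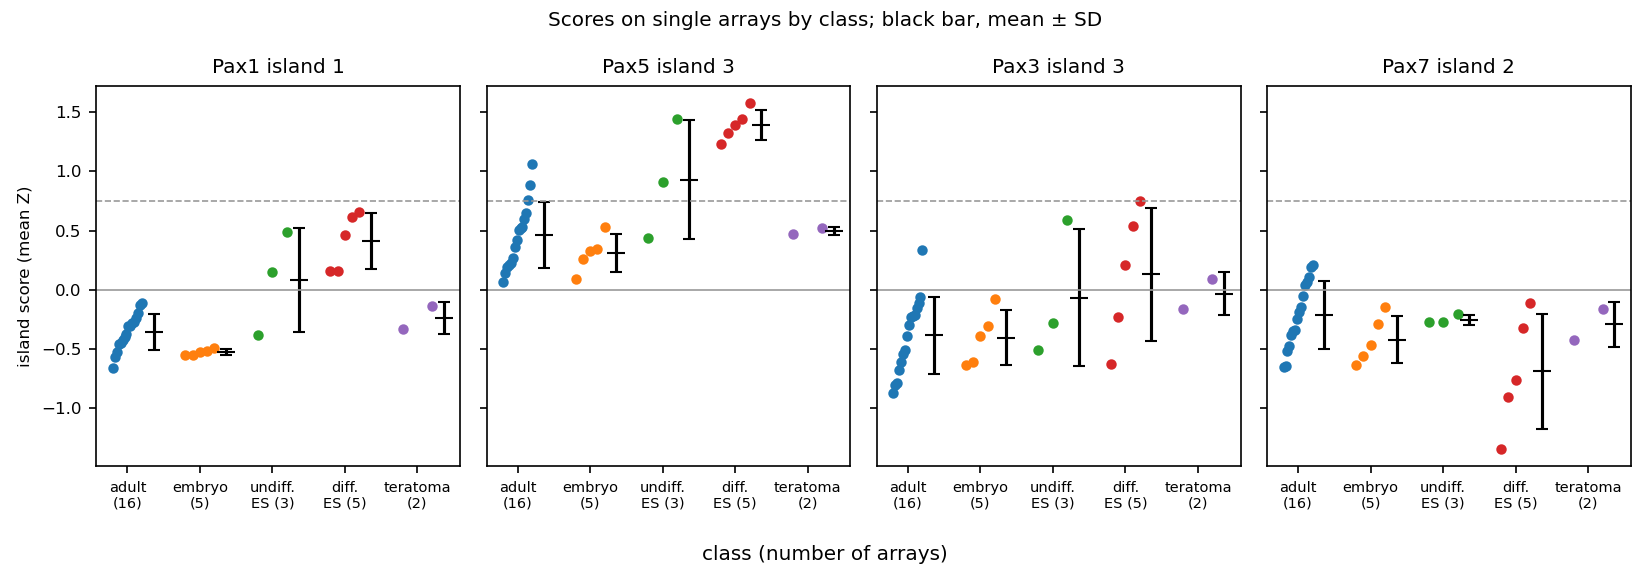
Scores (mean Z, vertical axis) of the 4 Pax islands called between differentiated ES cells and adult tissue, 1 point per array by class, with the mean ± SD of each class as a black bar and lines at 0 and 0.75. At Pax1 island 1 and Pax5 island 3 the 5 differentiated ES arrays lie above all 16 adult and all 5 embryo arrays, whereas at Pax3 island 3 and Pax7 island 2 the classes overlap.

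The other 2 calls had overlapping arrays. Pax3 island 3 (chr1:78086967-78087422, 5 promoter probes) gave adult scores from -0.87 to 0.34 (median -0.34) and differentiated scores of -0.62 in embryoid bodies, -0.23 after retinoic acid, 0.54 and 0.75 in endoderm and 0.21 in mesoderm. The endoderm arrays alone lay above the adult range. The difference of 0.51 (SE 0.19, limma adjusted p = 0.0480) fell to 0.15 with the slide (0.742) and 0.08 with the scan day blocked (0.872), and its sign differed between the scan days, 0.81 and -0.41. It was 0.41 without endoderm 1 (0.152), 0.36 without endoderm 2 (0.220) and 0.49 without mesoderm (0.104). Pax7 island 2 (chr4:139095611-139096299, 6 probes inside the gene) gave adult scores from -0.65 to 0.21 (median -0.22) against -0.76 in embryoid bodies, -0.32 after retinoic acid, -0.11 and -0.90 in endoderm and -1.34 in mesoderm. The embryoid bodies, endoderm 2 and mesoderm arrays lay below the adult range. The difference of -0.48 (SE 0.15, limma adjusted p = 0.0218) was seen at 6 of 6 probes and within both scan days (-0.43 and -0.78). It missed the threshold without embryoid bodies (-0.46, 0.0562), endoderm 2 (-0.42, 0.0782) or mesoderm (-0.31, 0.154).

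At Pax8 island 1 the 2 colon arrays stood apart from the other adult arrays. Differentiated ES cells gave 0.80, 0.71, 1.43, 0.62 and 0.72, the embryos -0.53, 0.07, -0.30, -0.04 and -0.33, and the adult arrays -0.40 to 2.92 (median 0.11). The 2 colon arrays, at 2.92 and 2.27, and muscle 1 at 0.91 were the highest adult scores. The difference from adult tissue was 0.47 (SE 0.36, limma adjusted p = 0.370) with all arrays, and 0.79 without the colon arrays, which were left out after seeing that they were the highest, so that the larger difference is no test. All 4 probes were higher in differentiated ES cells. Against embryos the difference was 1.08 (SE 0.44, limma adjusted p = 0.0804), with no overlap between the 5 arrays of each class. The share of all islands without overlap in that comparison was not counted.

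Of the islands that did not pass, those with larger differences were Pax7 island 1 (chr4:139093130-139094000, 8 probes, -0.32, SE 0.16), Pax2 island 3 (chr19:44812078-44812736, 6 probes, 0.31, SE 0.17), Pax3 island 1 (chr1:78072666-78073020, 4 probes, -0.28, SE 0.15) and Pax3 island 2 (-0.27, SE 0.15). Their limma adjusted p-values lay between 0.144 and 0.221. Pax3 island 2 was called lower with the slide as a block (-0.77, limma adjusted p = 0.0185), where 15.1% of all islands were called. It was also called lower with the scan day as a block (-0.87, limma adjusted p = 0.00492), where 16.5% were. Within the scan days that held both classes its difference was -0.64 and -1.02. At Pax2 island 3, inside this gene of kidney, inner ear and hindbrain, the array after retinoic acid stood at 1.02 and endoderm 1 at 0.49, whereas the other 3 differentiated arrays lay between -0.46 and -0.24. The island with most Pax2 probes, Pax2 island 2 over the promoter (chr19:44808771-44810922, 18 probes), scored -0.19 ± 0.15 (SD) on the 16 adult arrays and -0.36 ± 0.10 (SD) on the 5 of differentiated ES cells (limma adjusted p = 0.126). Pax9 island 3 scored -0.68 ± 0.16 (SD, n = 16) and -0.89 ± 0.16 (SD, n = 5; limma adjusted p = 0.0811), and Pax7 island 4 scored -0.46 ± 0.22 (SD, n = 16) and -0.52 ± 0.21 (SD, n = 5; limma adjusted p = 0.707). Pax7 island 3, Pax9 islands 1 and 2, Pax2 island 4 and Pax5 island 1 differed by between -0.19 and 0.19.

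The embryos give the reference in the animal at the stages when these genes are used. Against embryos differentiated ES cells were higher at 2 of 19 Pax islands and lower at none, where 11.8% and 9.29% of all islands were called higher and lower by limma. These were Pax1 island 1 (0.94, SE 0.13, limma adjusted p = 4.86e-06) and Pax5 island 3 (1.08, SE 0.17, limma adjusted p = 3.35e-05). Arrays of these classes did not overlap at either island. Nor did they at Pax8 island 1 or at Pax5 island 1 (-0.29 to -0.01 in differentiated ES cells, -0.63 to -0.49 in embryos). The share of all islands without overlap was not counted for this comparison. Differentiated ES cells and embryos shared no slide and no scan day. With the slide as a block, where 0.69% of all islands were called, neither Pax1 island 1 (1.03, limma adjusted p = 0.214) nor Pax5 island 3 (0.60, 0.616) passed. With the scan day as a block, where 2.68% were called, Pax1 island 1 passed (1.52, 0.0207) and Pax5 island 3 did not (1.23, 0.172). Embryos and adult tissue differed at 0 of 19 Pax islands by limma, where 8.64% of all islands were called. At an unadjusted p under 0.05 there were 2, Pax5 island 1 (-0.62, limma adjusted p = 0.101) and Pax7 island 1 (-0.38, limma adjusted p = 0.143), and the methods' t-test called 0 after adjustment. All adult arrays lay on a software version that no embryo array shared. The embryo scores of Pax1 island 1 varied least, with an SD of 0.02 over 5 ages, and those of Pax3 island 1 ran from -0.67 to -0.03.

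On average undifferentiated ES cells lay between adult tissue and differentiated ES cells at Pax1 island 1 and Pax5 island 3. Pax1 island 1 scored 0.15 in EB5, -0.38 in J1 and 0.48 in TT2, and Pax5 island 3 scored 1.44, 0.44 and 0.91. At both islands the J1 array lay within the adult range and EB5 above it, while TT2 lay above it at Pax1 island 1 only. By the labels the differentiated cultures came from EB5 and TT2 only, and none from J1. At Pax1 island 1 EB5 lay below both endoderm arrays and close to mesoderm. TT2 lay above embryoid bodies there and close to the retinoic acid array. At Pax5 island 3 EB5 lay above its endoderm and mesoderm arrays, and TT2 below embryoid bodies and the retinoic acid array. No Pax island passed against adult tissue by limma (0 of 19, with 4 at an unadjusted p under 0.05 and 0 by the methods' t-test), where 2.3% of all islands did. Without J1 3 of 19 passed, where 8.45% of all islands did: Pax1 island 1 (0.68, limma adjusted p = 6.96e-04), Pax5 island 3 (0.71, 0.0123) and Pax5 island 2 (0.53, 0.00259). J1 was the lowest line at each of these islands. Its processed column, which departs from its scanner file, was not used for these scores. With EB5 or TT2 left out instead, 0 of 19 Pax islands passed and 0% of all islands did. Between differentiated and undifferentiated ES cells 1 of 19 was called, lower, where limma called 3.51% of all islands higher and 1.92% lower. This was Pax3 island 1, at 0.45, 0.03 and 0.11 in EB5, J1 and TT2 against -0.83 in embryoid bodies, 0.13 after retinoic acid, -0.28 and -0.49 in endoderm and -1.12 in mesoderm. The array after retinoic acid lay among the undifferentiated lines and the other 4 below them. The difference of -0.71 (SE 0.21, limma adjusted p = 0.0403) missed the threshold when any of EB5 (-0.58, 0.167), J1 (-0.80, 0.0604), TT2 (-0.75, 0.0698), embryoid bodies (-0.63, 0.0918), endoderm 2 (-0.72, 0.0685) or mesoderm (-0.56, 0.109) was left out.

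Teratomas, in which ES cells differentiate inside an animal, stood near adult tissue. Pax1 island 1 scored -0.14 and -0.34 and Pax5 island 3 scored 0.47 and 0.52, both within the adult range and below all 5 arrays differentiated in culture. By the labels, and also by the methods, no culture shared its parent line with the teratomas. Parent line and setting therefore cannot be told apart. The undifferentiated J1 array, the teratomas' parent by label, itself scored -0.38 at Pax1 island 1 and 0.44 at Pax5 island 3. Against differentiated ES cells both islands were lower, by -0.65 (SE 0.17, limma adjusted p = 0.0151) and -0.90 (SE 0.22, limma adjusted p = 0.0108), and no Pax island was higher, where 1.54% of all islands were called higher and 5.27% lower. With a single teratoma, whose spread is then assumed to be that of the other classes, the differences were of similar size but neither passed: Pax1 gave -0.75 (0.101) without teratoma 1 and -0.55 (0.214) without teratoma 2, and Pax5 island 3 gave -0.87 (0.170) and -0.92 (0.107). Teratomas and adult tissue differed at 0 of 19 Pax islands by limma, with 0 at an unadjusted p under 0.05 and 0 by the methods' t-test, where 0.191% of all islands were called. At Pax8 island 1 the teratomas scored -0.21 and -0.05, below the differentiated cultures (-0.98, SE 0.58, limma adjusted p = 0.347).

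The adult tissues were compared because Pax2 and Pax8 act in kidney, Pax5 in B cells of the spleen, Pax3 and Pax7 in muscle and several Pax genes in brain. By limma 0 of 19 Pax islands differed between kidney, spleen, muscle or brain and the mean of the other tissues, where 0% of all islands were called in each. At an unadjusted p under 0.05 there were 1 Pax island for kidney, 1 for spleen and none for muscle and brain, among 136, 252, 172 and 544 of all islands. Kidney and spleen shared their island, Pax8 island 1, at -0.59 (SE 0.26) and -0.75 (SE 0.26). With colon left out of the mean of the other tissues the differences were -0.23 and -0.40. Any difference among the 8 tissues was called at 0 of 19 Pax islands, with 1 at an unadjusted p under 0.05, and at 0.0808% of all islands. The arrays labelled as 1 tissue disagreed as described above, and that disagreement is part of the spread in these tests.

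The 3 Pax islands below, singled out after their values were seen, had scores on single adult arrays far from the rest. At Pax8 island 1 the colon arrays scored 2.92 and 2.27, with all 4 probes above 0.75 on both, whereas the arrays labelled kidney scored -0.32 and 0.06. With all tissues its limma adjusted p was 0.0835. With colon and pancreas alone, the tissues whose arrays matched their label, limma called 2 of 19 Pax islands, Pax8 island 1 (colon higher by 2.37) and Pax5 island 1, and 3.93% of all islands. The island had been singled out on these same arrays, so that its call is a description. At Pax2 island 4, downstream of the gene (chr19:44889230-44890438, 11 probes), the arrays labelled kidney scored -0.30 and 1.90 and those labelled spleen 2.09 and -0.10. All other adult arrays lay between -0.37 and 0.00. On kidney 2 10 of 11 probes and on spleen 1 11 of 11 probes were above 0.75, against 0 of 11 on kidney 1 and on spleen 2. At Pax5 island 1, inside the gene (chr4:44685178-44685789, 6 probes), the order was turned round: kidney 1 scored 1.16 and spleen 2 1.64, whereas kidney 2 scored -0.51 and spleen 1 -0.22. The 6 probes of kidney 1 and the 5 measured on spleen 2 were all above 0.75. The colon arrays scored 0.65 and 0.68 there and the remaining adult arrays -0.54 to -0.02. Colon exceeded pancreas by 0.85. Both islands follow the nearest arrays rather than the labels: kidney 1 went with spleen 2 and kidney 2 with spleen 1, so that the tissue that carries the methylation is not given by these data. By the range of their adult scores Pax8 island 1, Pax2 island 4 and Pax5 island 1 exceeded 99.7%, 97.3% and 95.9% of all islands, and Pax5 island 2 exceeded 10.5%.

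**Figure D3:**
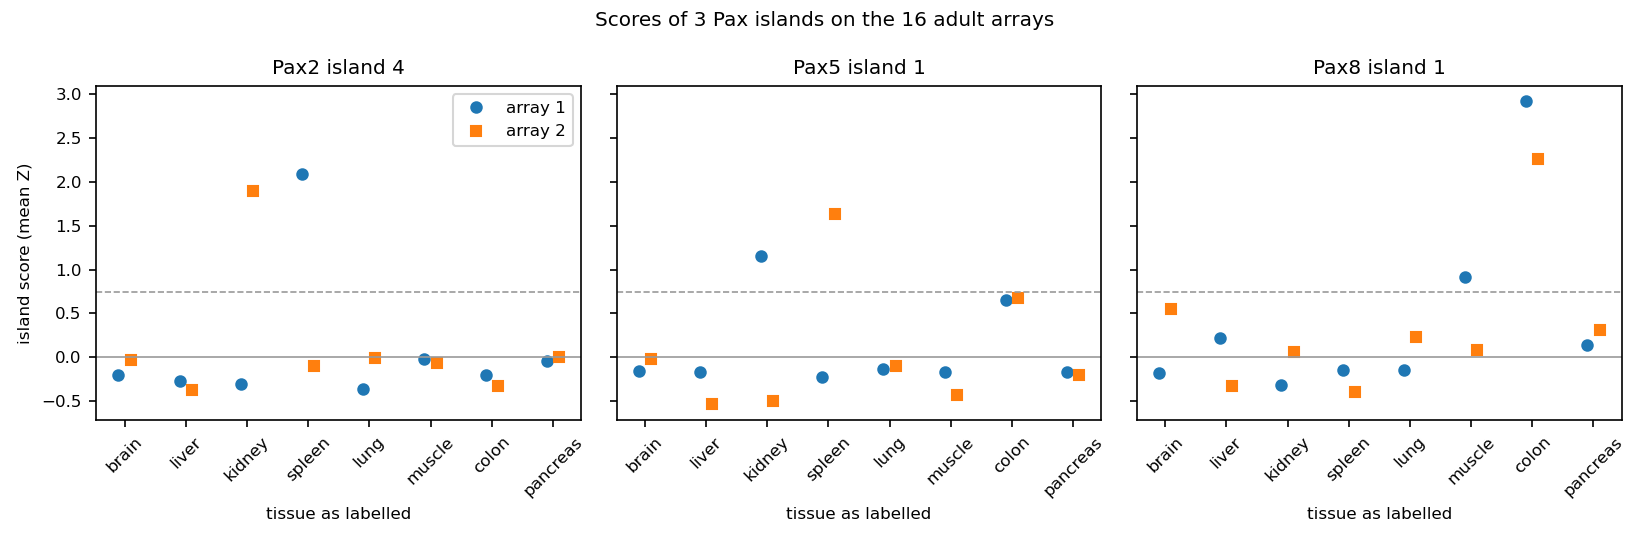
Scores (mean Z, vertical axis) of Pax2 island 4, Pax5 island 1 and Pax8 island 1 on the 16 adult arrays by the tissue on the label, with a circle for array 1 and a square for array 2 and a dashed line at 0.75. The colon arrays match at Pax8 island 1 (2.92 and 2.27), whereas the arrays labelled kidney, and those labelled spleen, fall apart at the other islands.

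**Figure D4:**
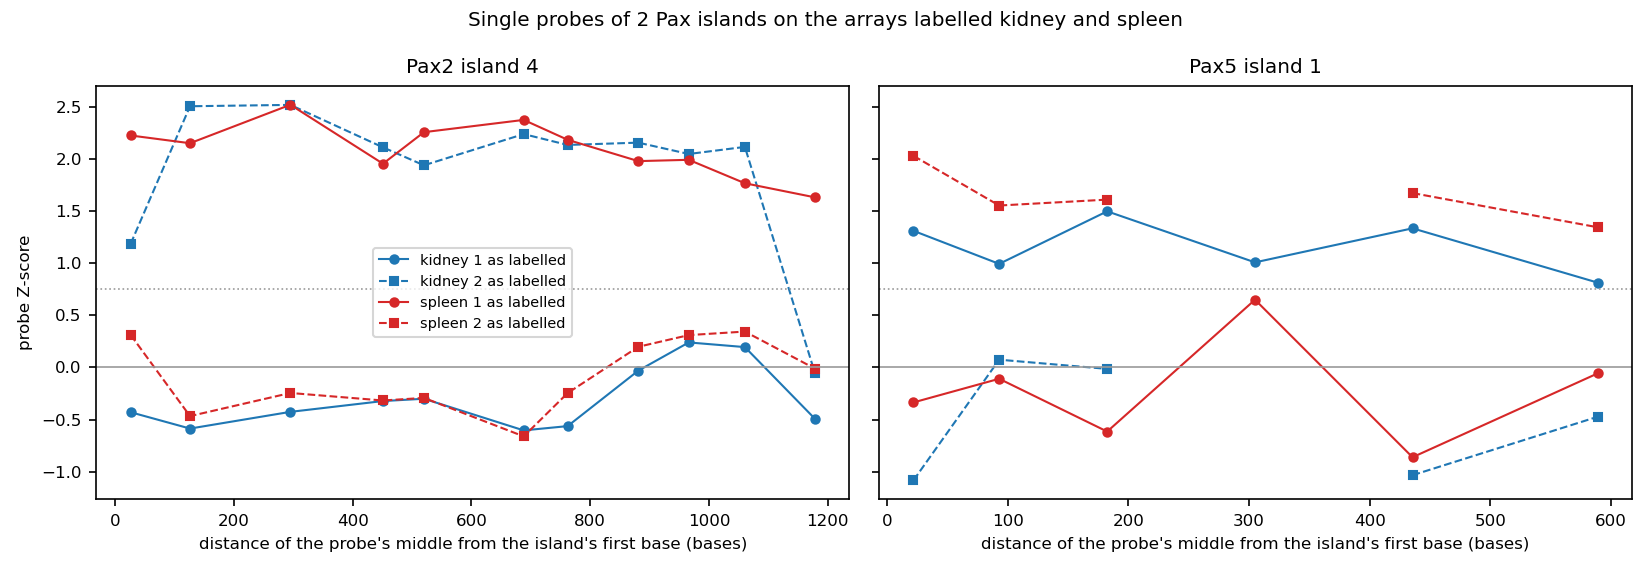
Z-score of each probe (vertical axis) by its distance in bases from the island's first base, at Pax2 island 4 and Pax5 island 1, on the arrays labelled kidney (blue) and spleen (red), number 1 as circles with solid lines and number 2 as squares with dashed lines, and a dotted line at 0.75. Kidney 2 runs with spleen 1 at the high level of Pax2 island 4, and kidney 1 with spleen 2 at that of Pax5 island 1.

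The pancreatic tumour lines carried the most methylated Pax islands. In Min6 9 of 19 islands lay above the range of the 16 adult arrays, as did 16.2% of all islands, and 6 of these were also above 0.75 (9.23% of all islands). In aTC 11 of 19 lay above the adult range (19.9% of all islands) and 5 were also above 0.75 (11.6%). In sorted β cells 1 of 19 lay above the adult range (11.6% of all islands) and 0 of 19 were also above 0.75 (2.4%). The median Pax score was 0.59 in Min6 and 0.57 in aTC, against -0.31 and -0.34 over all islands, and -0.19 in sorted β cells against -0.14. With 1 array each there is no replicate check and no test, and both lines shared a slide and, with the sorted β cells, a scan day. No adult array shared a slide, a scan day or a software version with the lines or the sorted β cells. Sample and batch therefore cannot be told apart in these counts.

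Both lines were above the adult range and above 0.75 at 3 of 19 islands, against 6.07% of all islands. Pax5 island 2 scored 1.67 in Min6 and 1.68 in aTC, where sorted β cells scored -0.01 and the pancreas arrays -0.17 and -0.09. All 11 probes measured there were above 0.75 in both lines. Pax5 island 4 scored 1.71 and 1.23 (sorted β cells 0.25), and Pax7 island 2 scored 0.76 and 1.00 (sorted β cells -0.40). In Min6 all 4 Pax5 islands were above 0.75, with 1.51, 1.67, 1.38 and 1.71 at islands 1, 2, 3 and 4, although island 1 lay within the adult range, whose highest array scored 1.64. In aTC Pax5 island 3 lay within the adult range at 0.58. The lines differed at other genes. Pax2 island 3 and Pax3 island 2 scored 1.63 and 1.51 in Min6 against 0.48 and 0.53 in aTC, and Pax7 island 1 scored 1.55 in aTC against 0.40 in Min6. At Pax3 island 2 all 6 probes were above 0.75 in Min6 and 1 of 6 in aTC. Pax9 island 3, below -0.40 on all adult arrays, scored 0.74 in Min6 and 0.87 in aTC, and -1.08 in sorted β cells, just under the adult range. Pax1 island 1 scored 0.22, 0.61 and -0.09 in Min6, aTC and sorted β cells. Pax8 island 1 was above 0.75 in all 3 (1.40, 1.78 and 1.23), within the adult range that colon sets. Pax3 island 3 and Pax7 island 3 scored below 0 in both lines, and Pax9 island 2 scored 0.07 and 0.25.

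**Figure D5:**
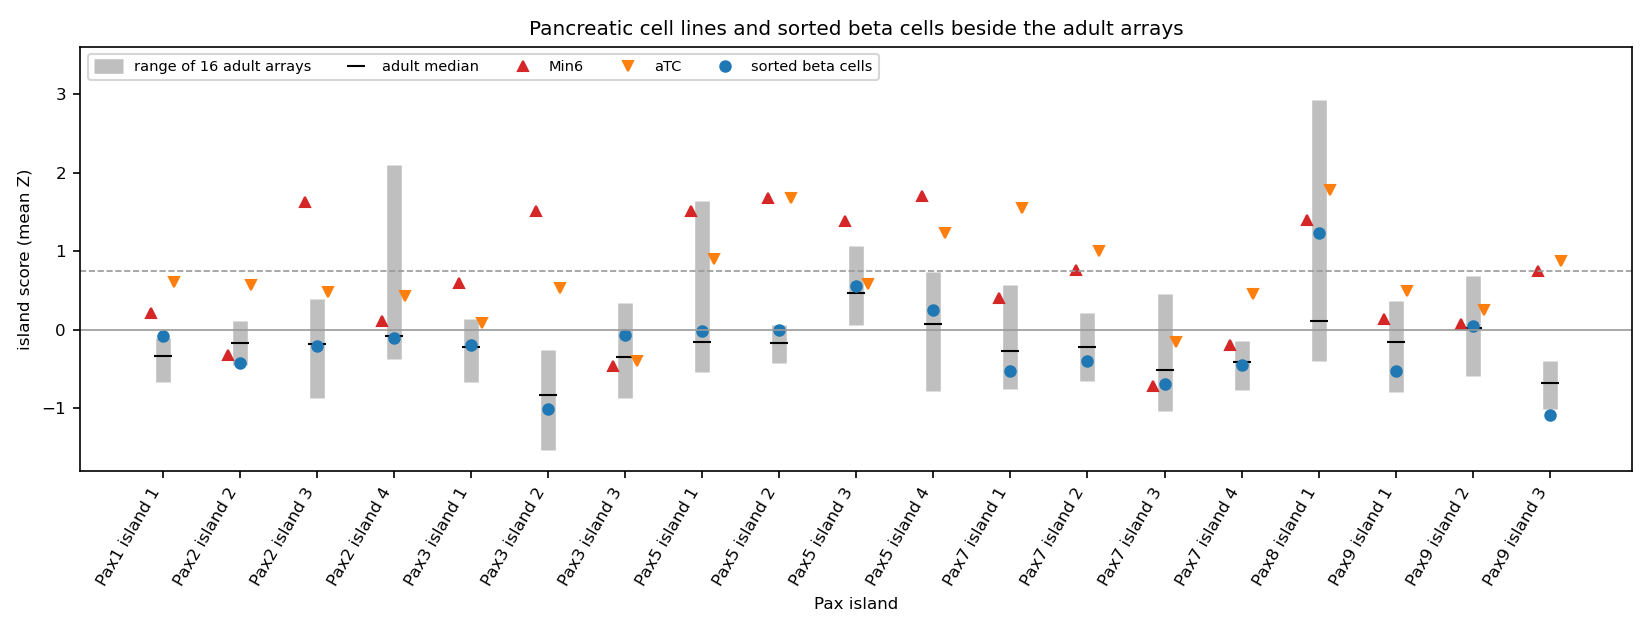
Score (mean Z, vertical axis) of each Pax island (horizontal axis) in Min6 (red upward triangles), aTC (orange downward triangles) and sorted β cells (blue circles), each 1 array, over the range of the 16 adult arrays (grey bars, black tick at the median), with lines at 0 and 0.75. Both lines stand far above the bars at Pax5 island 2 (1.67 and 1.68), and the sorted β cells lie within or close to the bars.

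For the island with most probes of each gene, the islands of other genes with the most similar scores were sought over the 34 arrays. Pax5 island 2 was nearest to islands of Foxq1 (Pearson r = 0.955) and Foxl2 (0.946), Pax9 island 3 to Pou3f2 (0.929) and Zic1 (0.920), and Pax3 island 2 to Igf2 (0.908) and Bmp7 (0.898). Pax1 island 1 was nearest to Barhl1 (0.887) and Tmprss2 (0.870), and Pax7 island 4 to Epha4 (0.853) and Litaf (0.821). The least close neighbours were those of Pax8 island 1, Nrn1 (0.809) and Tspyl3 (0.779), and of Pax2 island 2, Epha7 (0.744) and Rbm35a (0.718). The 34 arrays fall into shared classes and slides, and these correlations are a description. Min6 and aTC, which shared a slide, scored far above all other arrays at Pax5 island 2 (1.67 and 1.68, others at most 0.54). The same held at Pax9 island 3 (0.74 and 0.87, others below -0.40). How much both lines weigh in the correlations was not tested.

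Partners and neighbours of the Pax genes in development were listed beside them: 36 genes, of which 19 had a scored island, 41 islands in all. In differentiated ES cells 8 of the 41 were higher and 2 lower than in adult tissue by limma, where 14.4% and 8.73% of all islands were. Six2, a gene of nephron progenitors, was higher at 1 of its 3 islands (difference 1.41, SE 0.34, limma adjusted p = 0.00297). Of the 14 islands of kidney genes 1 was higher, at Wt1 (difference 1.42, SE 0.23, limma adjusted p = 2.44e-05), and 2 were lower, at Wnt4 (-0.63) and Sall1 (-0.36). Of the 5 islands of muscle and neural crest genes 2 were higher, at the muscle regulator Myod1 (difference 1.16, SE 0.16, limma adjusted p = 2.62e-06) and at Msx1 (0.63). Of 3 islands of B cell genes 1 was higher, at Ebf1 (0.62), and none of 1 thyroid and 5 sclerotome and pharynx islands passed. Pax6, the eye and islet gene, was higher at 2 of 4 islands (1.25 and 1.11). Differentiated ES cells were higher than embryos at 11 of the 41 and lower at 1, where 11.8% and 9.29% of all islands were called. Embryos were lower than adult tissue at 3, where 8.64% of all islands were called in either direction. Undifferentiated ES cells were higher than adult tissue at 1 and lower at 1 (2.3% of all islands in either direction). Teratomas differed from adult tissue at none (0.191% of all islands). Above both the adult range and 0.75 were 14 of 41 islands in Min6 and 16 in aTC, against 9.23% and 11.6% of all islands, and none of the 4 of Pax6 in either.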

How the data were processed

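The 34 arrays were Agilent CpG island arrays of mouse mDIP DNA, on 23 slides scanned on 16 days with 4 software versions. The authors deposited the scanner files, which hold background-subtracted, dye-normalized intensities of both dyes and the log10 ratio of Cy5 to Cy3 made by Agilent Feature Extraction, and a processed table of scores per probe, used here only as an alternative. Array depth has no read count, and the number of arrays limits the precision. The methods adjust the Z-scores for the melting temperature of the probe, which was not done here.

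Control and outlier spots were left out, and the log10 ratios were turned into Z-scores per array and averaged per island (gap of at most 500 bases, at least 3 probes on every array). The arrays have 97651 probes (14 arrays) or 88737, and 6 arrays list most probes at other positions; the positions of the larger grid were used throughout. Islands were compared with limma 3.58.1 in R 4.3.3 (Python 3.11.15 elsewhere) with Benjamini-Hochberg adjustment over all 13614 islands at 0.05. The 4 classes other than teratomas, β cells and tumour lines shared a fit, teratomas were added as a class for their comparisons, and the 8 adult tissues had a fit of their own. The methods' t-test is the study's equal-variance test on the same scores. The scripts were tested on simulated data. The Pax genes, the partner list and the tests were chosen with earlier results of these data known. Islands described with values were those with the 10 largest differences between differentiated ES cells and adult tissue, any called in kidney, spleen, muscle or brain (0), and the island with most probes of each gene, for which the 2 most similar islands of other genes are named. Alternatives covered the scaling, background correction, island rules, batch blocks and left-out arrays. The highest correlation between arrays was 0.967 (embryos 3 and 4), so that no array was a copy of another. The result of 1 partner gene is not reported here.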

Additional observations from a re-analysis of the deposited data

Results flagged for a closer look

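In 38 groups of 4 to 10 arrays, 3 had an array standing apart by Dixon's test at 95%, where chance would give 1.9. All 3 were in differentiated ES cells. At Pax7 island 3 endoderm 1 scored -0.0050, whereas the other 4 arrays lay between -0.65 and -0.52. At Pax8 island 1 endoderm 1 scored 1.43 and the other arrays 0.62 to 0.80. At Pax9 island 1 the array after retinoic acid scored 0.73, and the others lay between -0.33 and -0.02.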

How the results depend on the processing

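The 9 differences called in the class comparisons kept their sign in all settings in which they were repeated, while within single scan days that of Pax3 island 3 had both signs. The difference of Pax1 island 1 between differentiated ES cells and adult tissue passed in 20 of 20 settings (0.41 to 1.10), that of Pax5 island 3 in 18 of 19, that of Pax7 island 2 in 12 of 19 and that of Pax3 island 3 in 3 of 17; the cause of these losses was not tested. For differentiated ES cells against adult tissue the 4 Pax calls became 2 with the processed table (8 Pax islands scored), the probe median, at least 5 probes (10 scored), adult arrays of number 2, the methods' t-test and Z from median and MAD, and 2 to 7 with an array left out (2 without endoderm 2 or mesoderm, 7 without retinoic acid). They became 5 with normexp, adult arrays of number 1 or bright probes (9 scored), and 3, of which 1 was higher, with the slide as a block. Over all islands limma called 3154, of which 1966 were higher, against 1829 (1483 higher) after normexp on median signals and 2057 with the slide as a block. Against embryos the 2 calls became 1 with at least 5 probes, normexp, the scan day or the software version as a block, 0 with the slide, and 4 with only these classes in the fit and by the methods' t-test. Against undifferentiated ES cells the 1 call became 2 with the processed table and 0 with median-centred log2 ratios, at least 5 probes, normexp, only these classes, the scan day, the slide, the methods' t-test or MAD, and 0 to 1 with an array left out. The call without EB5 was Pax5 island 3 (higher by 0.72) and that without TT2 Pax1 island 1 (higher by 0.53), not Pax3 island 1. Embryos against adult tissue went from 0 to 1 with adult arrays of number 1. Over all islands it went from 1176 to 0 with the scan day as a block, and differentiated ES cells against embryos from 2871 to 94 with the slide and 365 with the scan day. The 2 teratoma calls against differentiated ES cells became 0 with the processed table, log2 ratios, normexp, the methods' t-test and MAD, 1 with at least 5 probes, only these classes or the software version, and 0 to 3 with an array left out. Undifferentiated ES cells against adult tissue went from 0 to 4 with the processed table, 1 with the probe median, 2 with bright probes (9 scored) and 0 to 3 with an array left out, while calls over all islands went from 2.3% to 26.4% with the processed table. Any tissue difference went from 0 to 2 with colon and pancreas alone, where calls over all islands rose from 11 to 535. In the tumour lines the 3 shared islands became 5 at a threshold of 0.5, 5 with the embryo range and 1 with the processed table (8 Pax islands scored). The 6 of Min6 became 2 with the processed table, and the 5 of aTC became 8 at 0.5 and 3 with the processed table. The shares of all islands under these settings are not given here, so that these counts have no background beside them.

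Numbers 1 and 2 do not pair the adult arrays: over 28 tissue pairs the deviations of replicate 1 correlated at -0.320 to 0.488, 11 of them over 0.1, and the number goes with the scan day and the grid in 6 tissues. With the replicate number as a block 0 Pax islands were called for kidney, spleen, muscle, brain or any tissue. Normexp on median signals, the colon arrays left out, and colon and pancreas alone were chosen after seeing the data. Normexp on mean signals was not run, as some scanner files used here lack them. Slide and scan day blocks could not be fitted for teratomas, and line counts were not repeated with log2 ratios, since the threshold is in Z.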
